A study of Mus musculus with 12 samples.

Results

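Cytochrome P450 genes of families 1 to 4 were taken as the rows of the count table whose symbol is Cyp, a family number from 1 to 4, 1 subfamily letter and a number, and which had at least 10 counts in at least 3 of the 12 libraries. The rule gave 57 of the 76 matching symbols, among 53599 genes in the table: 3 genes of family 1, 38 of family 2, 5 of family 3 and 11 of family 4. At the edge of the rule, Cyp2j8 (10 counts in its library of rank 3) and Cyp2c40 (12) were inside, and Cyp2c39 (8) and Cyp2c69 (5) outside. The filter of the statistical fit kept 56 members, all but Cyp2j8. For 11 members the rule would not have been met without a certain group: early for Cyp1a1, Cyp2b9, Cyp2d11, Cyp2d12, Cyp2g1, Cyp3a57, Cyp4a10 and Cyp4a14, early or intermediate for Cyp2c40, full for Cyp2j8 and BEC for Cyp2c65. A difference in favour of that group was built into their choice, so counts over the 56 members describe the genes that passed and support no direction.

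P450s are haem enzymes of the endoplasmic reticulum that take electrons from P450 reductase and insert an oxygen atom into their substrates. Hepatocytes carry most of the body's content of families 1 to 3, which oxidise drugs, toxins and steroids, and family 4 hydroxylates fatty acids and eicosanoids. Many of these genes are transcribed under nuclear receptors such as CAR, PXR and PPARα and under the aryl hydrocarbon receptor, and several are restricted to one zone of the liver lobule.

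RNA was sequenced from 12 libraries of mouse liver cells of genotype WT, 3 in each of 4 sorting gates. All mice, also those of the last group, received AAV8-TBG-Cre, in which the TBG promoter limits Cre to hepatocytes so that these and their progeny become EGFP+, and from 1 week later a diet with 0.1% DDC, a porphyrinogenic agent that injures bile ducts, for 8 weeks. Cells of the early group were EGFP+ Cd24- Epcam-, of the intermediate group EGFP+ Cd24+ Epcam-, of the full group EGFP+ Cd24+ Epcam+, and of the BEC group (biliary epithelial cells) EGFP- Epcam+; no animal without DDC was included, so early is not normal liver. The study asks how transcription changes along the conversion of hepatocytes to biliary cells; age and the reporter allele are not given in the sources used here.

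Library totals ran from 15112893 to 19731887 counts, so that 3 counts, taken here as the floor, correspond to 0.128 to 0.273 CPM, the unit of level used here, which relates a gene's count to the library size after TMM scaling. The labels do not say that replicates came from separate animals, and the p-values measure the spread between these libraries only. Marker levels went with the labels of the gates. The summed level of 6 hepatocyte markers (Alb, Apoa1, Ttr, Hnf4a, Serpina1c and Fgb) was 93981 to 95468 CPM in early, 16229 to 19777 in intermediate, 3414.3 to 4382 in full and 2007 to 2573 in BEC, and that of 5 biliary markers (Krt19, Krt7, Epcam, Sox9 and Spp1) was 901 to 1859, 8929 to 11852, 10949.7 to 14283 and 13202 to 16518. Spp1 made up most of the biliary sum, with means of 1237, 9866, 11316 and 12144 CPM in the 4 groups. In intermediate, full and BEC, Krt19 stood at 2.21, 118 and 593 CPM and Krt7 at 3.44, 172 and 388. Sox9 stood there at 311, 378 and 388 CPM, and Epcam, itself a gate marker, at 18.8, 254 and 866. Between neighbouring groups all 6, all 6 and 5 hepatocyte markers fell and 5, 3 and 3 biliary markers rose. With total counts alone 5 hepatocyte markers fell in the first step, without Hnf4a (-0.17, adjusted p = 0.196, edgeR). Markers of other cells summed to at most 143 CPM per library for macrophages, and at most 0.453 for each of neutrophils, B cells and T and NK cells. The sum of 6 stellate and fibroblast markers was 94.6 to 272 CPM in early, 57.2 to 162 in intermediate, 44.6 to 73.6 in full and 48.8 to 86.2 in BEC. The sums of 5 endothelial and 4 erythroid markers, like this one, had their highest mean in early, as did most P450 genes: 13.1 to 17.6 and 18.7 to 32.9 CPM in early, 5.78 to 12.5 and 2.33 to 3.17 in intermediate, 1.66 to 3.89 and 0.213 to 0.787 in full and 1.30 to 5.85 and 0.385 to 1.23 in BEC. Of the erythroid sum in early, Alas2 made up 24.3 of a mean of 24.4 CPM, with Hba-a1 and Hba-a2 at 0 counts there; the part of these cells in the P450 levels was not tested. Counts of mitochondrial genes moved with the groups, at 5.45% to 11.4% of a library in early (the highest in replicate 2), 3.99% to 4.75% in intermediate, 2.20% to 2.48% in full and 2.58% to 3.43% in BEC, and their part in the P450 levels was not tested. In bulk RNA, fewer cells of a type and less RNA per cell cannot be told apart.

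The summed level of the 57 P450 genes fell in both steps from early over intermediate to full cells, and full and BEC stood near each other far under early. The sum was 20047, 19384 and 19449 CPM in the early libraries, 2430.4, 2834 and 2993 in intermediate, 898, 904 and 1059 in full and 1071, 1026 and 1193 in BEC. No library of one EGFP+ group reached the range of the next, while full and BEC overlapped. The mean of intermediate was 14.0% of that of early, the mean of full 4.86% and the mean of BEC 5.59%, and these genes took 1.29%, 0.288%, 0.115% and 0.132% of all counts of a library, before TMM scaling, in the 4 groups. An exact permutation test of the F statistic over all 369600 assignments of the 12 libraries to 4 groups gave p = 0.00013 for the log2 sums. For 3 libraries against 3 the 2-sided exact test cannot go below 0.1, the value of each of the 2 steps among EGFP+ groups; full against BEC gave 0.2. Within same-numbered libraries BEC stood above full by log2 differences of 0.25, 0.18 and 0.17, of one sign in 3 of 3 pairs; the exact sign-flip test of 3 pairs cannot go below 0.25, which is its value here.

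All 4 families lost level, and the families were not tested against each other. Family 1, in early almost all Cyp1a2, summed to 845, 664 and 1053 CPM in the early libraries, 50.9, 54.4 and 77.3 in intermediate, 13.1, 12.4 and 18.8 in full and 8.24, 7.55 and 19.5 in BEC. Family 2 summed to 14505, 13675 and 14505 CPM in the early libraries, 1681, 1899 and 2097 in intermediate, 556, 581 and 685 in full and 778, 744 and 877 in BEC. In both families the EGFP+ groups did not overlap, and BEC overlapped full in family 1 but lay above it in family 2. Family 3, in early mostly Cyp3a11, summed to 3878, 4171 and 2935 CPM in the early libraries, 285, 445 and 315 in intermediate, 57.7, 59.1 and 63.7 in full and 64.2, 67.7 and 73.3 in BEC. Family 4 summed to 819, 874 and 957 CPM in the early libraries, 414, 435 and 503 in intermediate, 272, 251 and 291 in full and 221, 206 and 223 in BEC, and so fell least: full held 30.7% and BEC 24.5% of its early mean, against 1.73% and 1.38% for family 1, 4.27% and 5.62% for family 2 and 1.64% and 1.87% for family 3. As a part of all counts, without TMM scaling, full and BEC held 55.9% and 44.7% of early for family 4, 3.14% and 2.51% for family 1, 7.78% and 10.2% for family 2 and 3.00% and 3.41% for family 3. As a share of all counts of these P450 genes, family 4 made up 4.51% ± 0.417 in early, 16.4% ± 0.913 in intermediate, 28.5% ± 1.53 in full and 19.8% ± 0.992 in BEC (mean ± SD, n = 3), and family 3 18.6% ± 3.27, 12.7% ± 2.71, 6.33% ± 0.271 and 6.25% ± 0.315. In the exact permutation test over 4 groups, p adjusted over the 4 families was 0.00026 for family 1 and 8.66e-05 for each of the others, whose unadjusted p of 6.49e-05 is the smallest these assignments can give. Families 2 and 3 were higher in every BEC library than in any full library, by 0.40 and 0.18 on the log2 scale, and family 4 was lower, by a log2 difference of -0.32, each with the smallest exact p of 0.1. In family 2, Cyp2d22 went from a mean of 136 CPM in full to 305 in BEC, Cyp2j6 from 118 to 173 and Cyp2j5 from 162 to 58.5. The median log2 fold change over its 37 tested genes was -0.02, so the sum does not speak for most of them.

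**Figure D1:**
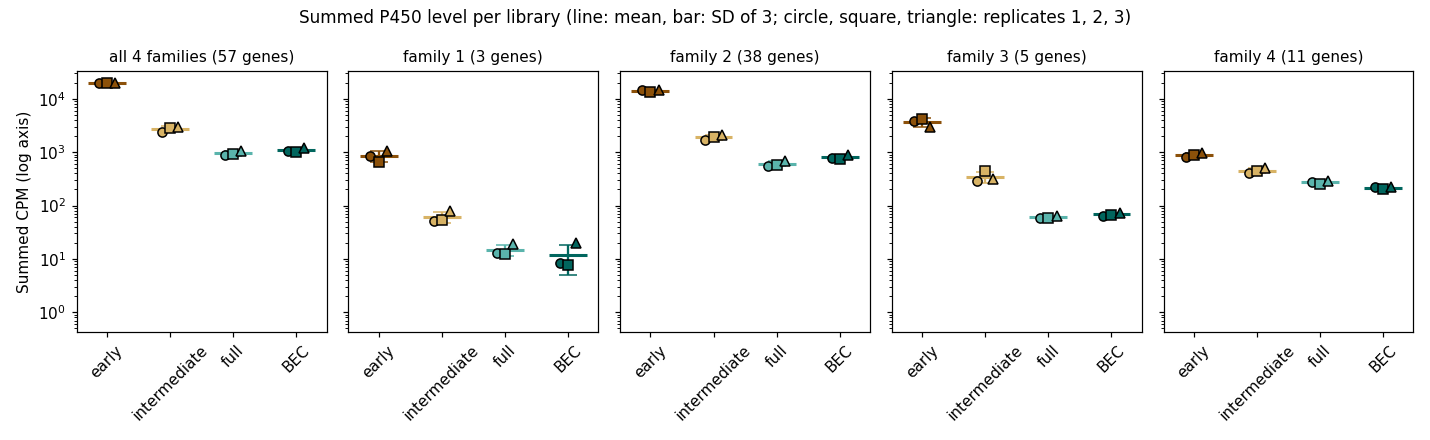
Summed level of the P450 genes in each library, on a log axis in CPM, for all 57 genes and for families 1 to 4. Points are libraries (circle, square and triangle are replicates 1, 2 and 3), lines are group means and bars the SD of 3; family 4 fell from a mean of 884 CPM in early to 217 in BEC, and family 1 from 854 to 11.8.

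From early to intermediate, the first step, most members with at least 10 CPM in early fell to under 20% of their early level. Of 38 members with at least 10 CPM in early, 24 stood between 3% and 20% of early, 11 between 20% and 90% and 3 above; Cyp2j5 kept 53.3%, Cyp4v3 43.3% and Cyp2j6 80.9%. Of 56 members tested, 46 were called by edgeR's quasi-likelihood test (Benjamini-Hochberg adjusted p under 0.05 over 16210 genes), 43 lower and 3 higher; of all genes tested 54.4% were called, 25.7% lower and 28.7% higher. Without the members that met the count rule through 1 group, 36 of 46 were lower and 2 higher. The median log2 fold change was -2.93 over the members and 0.06 over all genes. By family, 2 of 3 genes of family 1, 29 of 37 of family 2, all 5 of family 3 and 7 of 11 of family 4 were lower. Under scaling by total counts alone the median over all genes was 0.72 and that of the members -2.28, with 38 members lower and 6 higher, against 10% and 59.4% of all genes; directions here are relative to the TMM scale.

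Cyp2e1, the pericentral oxidase of ethanol and acetaminophen, was at 1297, 1029.8 and 949.9 CPM in the early libraries, 67.1, 81.3 and 74.6 in intermediate, 10.3, 9.10 and 14.4 in full and 11.1, 12.6 and 18.0 in BEC. Its early libraries exceeded every other library by over an order of magnitude, and full and BEC overlapped. The log2 fold change of the first step was -3.88 ± 0.21 (SE; adjusted p = 6.49e-09, edgeR). Cyp1a2, a pericentral enzyme of caffeine metabolism driven by the aryl hydrocarbon receptor, was at 841, 659 and 1048 CPM in the early libraries, 49.4, 53.3 and 75.7 in intermediate, 8.81, 7.58 and 13.8 in full and 7.47, 6.52 and 19.1 in BEC. It fell by 3.84 ± 0.36 on the log2 scale, and in both full and BEC its replicate 3 was the highest. Cyp2f2, the periportal member known for activating naphthalene, was at 402, 592 and 615 CPM in the early libraries, 35.3, 60.7 and 61.02 in intermediate, 3.74, 7.09 and 7.57 in full and 3.23, 5.64 and 12.2 in BEC. Its first step was -3.36 ± 0.38, with intermediate and early apart in all libraries and full and BEC overlapping.

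The 3 members with the highest mean CPM in early also fell in both steps, as did Cyp2b10 and Cyp2d9. Cyp2a5, the coumarin 7-hydroxylase, was at 3968, 4101 and 3857 CPM in the early libraries, 333, 433 and 429 in intermediate, 36.4, 39.0 and 60.6 in full and 33.3, 48.1 and 75.3 in BEC; the first step was -3.32 ± 0.27 on the log2 scale (adjusted p = 2.44e-07, edgeR). Cyp3a11, the main PXR-regulated Cyp3a enzyme of mouse liver, was at 3237, 3557 and 2450.3 CPM in the early libraries, 175, 330.0 and 198 in intermediate, 29.7, 41.1 and 35.9 in full and 32.3, 44.7 and 48.9 in BEC, with a first step of -3.72 ± 0.26. Cyp2c29, an arachidonic acid epoxygenase, was at 2378, 1607 and 2319 CPM in the early libraries, 133, 136 and 169 in intermediate, 19.7, 18.5 and 33.9 in full and 25.9, 19.9 and 47.1 in BEC, with -3.85 ± 0.32. For each of these 3 genes the groups early, intermediate and full did not overlap, and BEC overlapped full. Cyp2b10, the classical target of CAR, was at 114, 124 and 181 CPM in the early libraries, 4.97, 12.4 and 14.6 in intermediate, 0.638, 1.03 and 2.49 in full and 1.25, 1.58 and 4.204 in BEC. Cyp2d9, a steroid hydroxylase with higher levels in males, was at 1197, 747 and 891 CPM in the early libraries, 119, 87.9 and 111 in intermediate, 14.6, 8.56 and 13.3 in full and 10.9, 6.71 and 13.9 in BEC. In both, every early library lay above every intermediate one and every intermediate library above full and BEC, which overlapped. Reads of Cyp2a5 may be split with Cyp2a4, with which it shares 28.1% of its 50-base stretches.

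The largest falls of the first step among members with at least 10 CPM in early were those of Cyp2d13 (-4.08 ± 0.44, adjusted p = 3.88e-06), Cyp3a25 (-4.07 ± 0.26, 2.63e-08) and Cyp2e1, by edgeR. Cyp2d13 was at 97.4, 128 and 163 CPM in the early libraries, 3.96, 8.71 and 10.1 in intermediate, 0.298, 0.892 and 2.19 in full and 0.434, 0.513 and 2.10 in BEC. Cyp3a25 was at 393, 375 and 253 CPM in the early libraries, 15.5, 30.1 and 14.8 in intermediate, 4.08, 3.70 and 4.02 in full and 3.18, 4.19 and 4.62 in BEC; it shares 25.2% of its 50-base stretches with Cyp3a59, so their reads are uncertain. In neither gene did early and intermediate overlap. Higher in intermediate were Cyp4f16 (0.44 ± 0.11, adjusted p = 0.00276, edgeR), Cyp4b1 (2.43 ± 0.69, 0.00873, with overlapping libraries) and Cyp2c65, which had 1 count in all early libraries together. The 10 members not called were Cyp1b1, Cyp2c40, Cyp2d11, Cyp2j9, Cyp2j13, Cyp2s1, Cyp2t4, Cyp2u1, Cyp4a31 and Cyp4f17.

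From intermediate to full, the second step, most members fell again. Of 56 members 43 were called, 40 lower and 3 higher (edgeR, adjusted p under 0.05), against 40.7% of all genes, 19.8% lower and 20.8% higher; without the members kept through 1 group, 36 of 46 were lower and 3 higher. The median over the members was -2.49, or -2.43 with genes at 0 counts in a group set to their bound, and 0.01 over all genes. Lower were 2 of 3 genes of family 1, 28 of 37 of family 2, 4 of 5 of family 3 and 6 of 11 of family 4. The step shares the intermediate libraries with the first, so the counts of the 2 steps are not independent.

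Cyp2c68 showed the largest fall of the second step among members with at least 10 CPM in intermediate, at -3.76 ± 0.31 (adjusted p = 7.06e-07, edgeR), followed by Cyp2d26 (-3.29 ± 0.25, 3.91e-07) and Cyp2d10 (-3.26 ± 0.16, 1.98e-08). Cyp2c68 was at 169.5, 165 and 141 CPM in the early libraries, 30.2, 43.7 and 63.7 in intermediate, 2.38, 2.32 and 5.47 in full and 2.22, 2.38 and 2.42 in BEC. It shares 35.6% of its 50-base stretches with Cyp2c40, and full and BEC overlapped. Cyp2d26 was at 936, 807 and 784 CPM in the early libraries, 94.7, 83.4 and 79.8 in intermediate, 8.13, 7.76 and 10.5 in full and 4.87, 6.57 and 12.2 in BEC. The log2 change of this step was -2.72 ± 0.20 for Cyp2e1, -3.10 ± 0.40 for Cyp2f2, -2.56 ± 0.36 for Cyp1a2 and -2.72 ± 0.25 for Cyp3a11. Cyp2d26 overlapped between full and BEC, as did these 4 genes. Higher in full were Cyp2s1, Cyp1b1 and Cyp2j13.

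Whether the 2 steps differed in size was tested per gene as (full minus intermediate) minus (intermediate minus early), on the log2 scale. Of 56 members 9 were called, 3 with a more negative second step and 6 with a less negative or more positive one (edgeR, adjusted p under 0.05), against 16.4% of all genes, 10.8% and 5.64%. The first step was the larger fall for Cyp3a25 (difference 1.72 ± 0.44, adjusted p = 0.0175), Cyp2c37 (1.503 ± 0.39, 0.0179), Cyp2e1 (1.15 ± 0.34, 0.0325) and Cyp2d22 (0.91 ± 0.15, 0.00110), by edgeR. The second was the larger for Cyp2c68 (-1.97 ± 0.46, 0.00990) and Cyp2d10 (-1.07 ± 0.25, 0.0101), again by edgeR's adjusted p. Cyp1b1 and Cyp2s1 rose more in the second step, and Cyp2c65 had almost no early counts. With the replicate number as a replicate block, 19 members were called, 7 and 12, against 21.6% of all genes, 13.8% and 7.72%. Without intermediate replicate 3 the count was 2, against 11.9% of all genes, and with total counts the split was 9 and 4, against 35.2% and 2.71%. The call of Cyp2e1 was lost with total counts (0.69, adjusted p = 0.112, edgeR) and without any 1 of the 3 intermediate libraries or full replicate 3, where adjusted p ran up to 0.122; those of Cyp3a25, Cyp2c68 and Cyp2d10 were lost without intermediate replicate 3, with adjusted p of 0.0857, 0.0693 and 0.0549, and that of Cyp3a25 also without intermediate replicate 1 (0.0793). The call of Cyp2c37 was lost with total counts (0.0590, edgeR's adjusted p) and when replicate 3 of full (0.0671) or replicate 2 (0.0575) or 3 (0.0750) of intermediate was left out. Without 1 intermediate library the differences moved to 2.54 for Cyp3a25 (replicate 2) and -1.36 for Cyp2c68 (replicate 3).

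**Figure D2:**
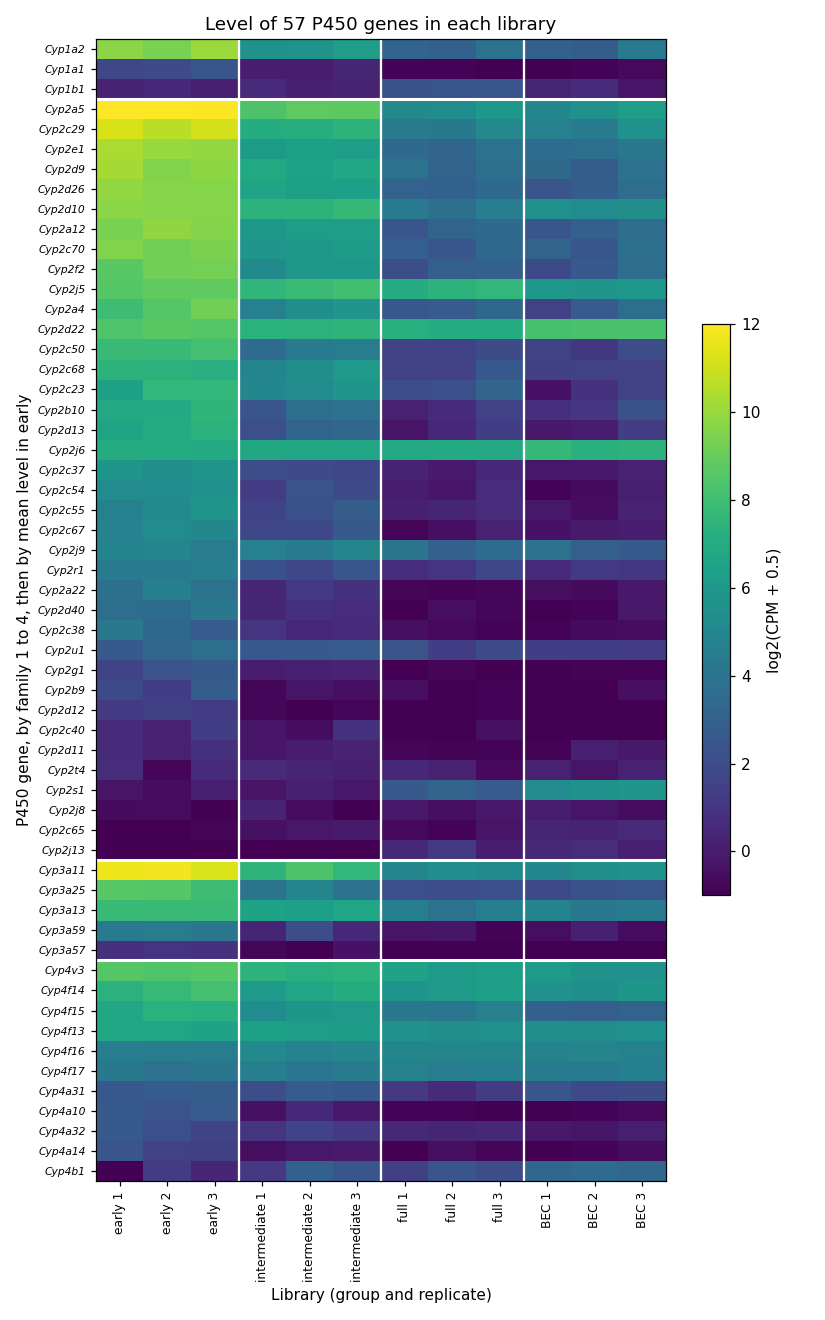
Level of each of the 57 P450 genes (rows, by family and then by mean level in early) in each of the 12 libraries (columns, by group and replicate), as log2(CPM + 0.5). Most rows of families 1 to 3 darken from early to full and stay dark in BEC, while Cyp2j5, Cyp2j6, Cyp2d22 and the Cyp4f rows keep more of their level and Cyp2s1 brightens to a mean of 46.5 CPM in BEC.

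In full and BEC cells, most P450 genes with a clear level in early cells stood near 1% of it on the TMM scale. Against early, 53 of 56 members were called in full, 47 lower and 6 higher (edgeR, adjusted p under 0.05), beside 71.2% of all genes, 32.1% lower and 39.1% higher. In BEC 54 were called, 47 lower and 7 higher, beside 73.1% of all genes, 33% and 40%. Of these, 9 of the 47 lower members in each comparison had met the count rule only through early, or early and intermediate; without the members kept through 1 group, 38 of 46 were lower and 6 higher in full, and 38 and 6 in BEC. The medians over the members were -5.55 in full and -5.90 in BEC, or -5.50 and -5.65 with genes at 0 counts set to their bound, and 0.14 over all genes in both; with total counts alone they were -4.68 and -5.03, beside 1.005 and 1.004 over all genes, and the calls were 45 lower and 8 higher in full, against 14.8% and 66.4% of all genes, and 44 and 8 in BEC, against 16.2% and 65.8%. Both comparisons share the early libraries.

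Of the 38 members with a mean of at least 10 CPM in early, 25 had a BEC mean under 3% of the early mean, against 4.72% of 9119 genes with that level, and in full the number was also 25, against 2.93%. These percents are on the TMM scale and were not taken with total counts. For the sum of all members, full and BEC held 8.85% and 10.2% of early with total counts, against 4.86% and 5.59% with TMM. The limit of 3% was set after the values were seen and lies in a gap of the BEC values: the highest of the 25 was Cyp2a4 with 1.73%, and the next member was Cyp2d10 with 5.16%. Full had no such gap, with Cyp2c68 at 2.14%, Cyp2d10 at 2.28% and Cyp2c23 at 3.53%. The 25 under 3% in full thus include Cyp2d10 and not Cyp2c23. The 25 members under 3% in BEC, followed from here on, lay between 0.592% and 1.73% of early in BEC, with a median of 1.26%, and 20 of them between 1 and 2%. Without BEC replicate 3 their median was 0.933%, the lowest was Cyp2d40 with 0.166%, and 10 lay between 1 and 2%, with all 25 still under 3%. Their early means spanned 11.3 CPM for Cyp2c38 to 3975 for Cyp2a5. In full their median was 1.15%, with a range from 0.419% to 3.53%, and in intermediate 8.84%, from 5.86% to 28.9%. The 25 were all 4 genes of subfamily 2a, Cyp1a2, Cyp2b10, Cyp2e1, Cyp2f2, 10 of subfamily 2c, 4 of subfamily 2d (Cyp2d9, Cyp2d13, Cyp2d26 and Cyp2d40) and 3 of subfamily 3a (Cyp3a11, Cyp3a25 and Cyp3a59).

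In full and in BEC, most of these 25 genes were highest in the same library. BEC replicate 3 was the highest BEC library for 24 of them, and full replicate 3 the highest full library for 19, while the early libraries split 9, 7 and 9 and the intermediate ones 4, 9 and 12. The hepatocyte marker sum was also highest in these 2 libraries, at 2573 CPM against 2182 and 2007 in the other BEC libraries and 4382 against 3570 and 3414.3 in the other full libraries; its part in the P450 levels was not tested. In BEC the marker Alb stood at 2.25% of early, Apoa1 at 0.932%, Fgb at 1.98%, Ttr at 4.94%, Serpina1c at 5.12% and Hnf4a at 11.4%. Of the 25, Cyp2c23 alone was called between BEC and full.

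Among members with at least 10 CPM in early, Cyp2a22 (-7.76 ± 0.48, adjusted p = 5.28e-09), Cyp2d40 (-7.01 ± 0.66, 4.07e-07) and Cyp2d13 (-6.85 ± 0.54, 6.16e-08) fell furthest from early to full by edgeR. Cyp2a22 was at 13.4, 24.0 and 14.4 CPM in the early libraries, 0.817, 1.81 and 1.36 in intermediate, 0.0851, 0.0446 and 0.0875 in full and 0.193, 0.140 and 0.411 in BEC. Cyp2d40 was at 12.3, 11.5 and 18.2 CPM in the early libraries, 0.754, 1.26 and 1.08 in intermediate, 0, 0.223 and 0.0875 in full and 0, 0.0466 and 0.411 in BEC. In full, Cyp2a22 had 1 or 2 counts a library and Cyp2d40 0, 5 and 2, so that these fold changes rest on a few counts in full and depend on the small count that the fit adds. In BEC the largest falls were those of Cyp2c54 (-7.34 ± 0.47, 6.02e-09), Cyp2d13 (-6.97 ± 0.55, 5.06e-08) and Cyp2c23 (-6.84 ± 0.54, 5.07e-08), by the same adjusted p of edgeR. Cyp2c54 was at 38.2, 39.5 and 46.8 CPM in the early libraries, 1.95, 4.60 and 3.57 in intermediate, 0.511, 0.357 and 1.05 in full and 0.0482, 0.140 and 0.548 in BEC. Its BEC level rests on 16 counts, of which replicate 3 held 12, and the fold change ran from -8.67 to -6.88 when 1 library was left out. Without BEC replicate 3, Cyp2d40 gave -8.84, Cyp2c54 -8.67, Cyp2d13 -8.07 and Cyp2c23 -7.50, so the order of these falls depends on that library. In full against early, Cyp2d40 moved to -8.12 without full replicate 2 and Cyp2d13 to -7.76 without full replicate 3. Cyp2c40, Cyp2d12 and Cyp3a57 had 0 counts in all BEC libraries and were at least 8.95-fold, 14.3-fold and 9.53-fold lower than in early (floor of 3 counts per library). Cyp2d12 and Cyp3a57 reached 10 counts in the 3 early libraries alone, and Cyp2c40 in 2 early and 1 intermediate library, so these falls follow from the count rule and are a description only. Cyp3a57 also had 0 counts in full, at least 10.2-fold lower.

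**Figure D3:**
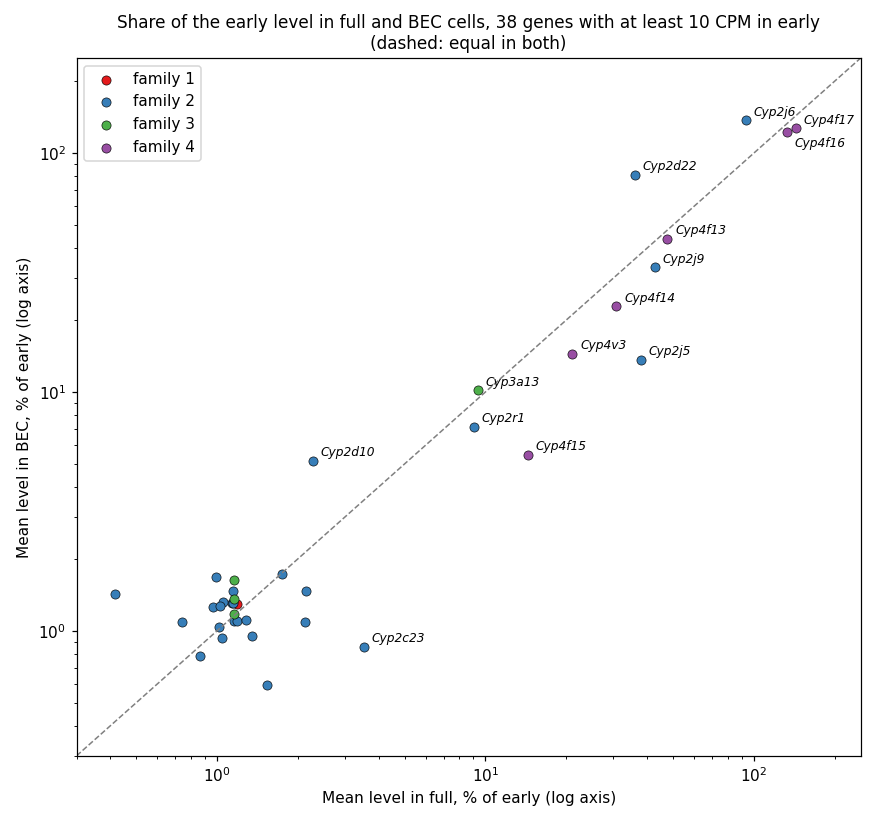
Mean level in full (horizontal) and in BEC (vertical) as a percent of the mean in early, both on log axes, for the 38 P450 genes with at least 10 CPM in early; colours mark families, and both axes share the early libraries. A group of points lies near 1% on both axes, and labelled genes from Cyp2d10 (5.16% in BEC) to Cyp2j6 (137%) spread upward along the dashed line of equal values.

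The other 13 of the 38 members kept from 5.16% to 137% of their early level in BEC. These were Cyp2d10 and Cyp4f15 (5.45%), Cyp2r1 (7.13%), Cyp3a13 (10.2%), Cyp2j5 (13.7%), Cyp4v3 (14.4%), Cyp4f14 (22.9%), Cyp2j9 (33.3%), Cyp4f13 (43.9%), Cyp2d22 (81.0%), Cyp4f16 (123%), Cyp4f17 (127%) and Cyp2j6. Nearest to the 25 were Cyp2d10 and Cyp4f15, and 3 genes stood above their early level. All 6 members of family 4 with at least 10 CPM in early and all 3 of subfamily 2j were among them, with 1 of 4 of family 3. Within family 3, Cyp3a13, an enzyme found in liver and gut, stood beside Cyp3a11 (1.36%), Cyp3a25 (1.17%) and Cyp3a59 (1.63%). Cyp3a13 was at 226, 215 and 213 CPM in the early libraries, 92.9, 81.3 and 102 in intermediate, 23.6, 14.0 and 23.8 in full and 28.6, 18.2 and 19.6 in BEC. Its first step was -1.24 ± 0.19 and its second -2.17 ± 0.20 on the log2 scale.

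In subfamily 2j, whose members epoxidise arachidonic acid, the 2 most abundant genes differed in direction between full and BEC. Cyp2j5 was at 376, 449 and 461 CPM in the early libraries, 188, 229 and 268 in intermediate, 128, 167 and 192 in full and 59.8, 55.0 and 60.7 in BEC. It was lower in each group than in the one before, with overlap only between intermediate and full, and BEC stood -1.47 ± 0.16 (log2; adjusted p = 1.52e-05, edgeR) from full. The calls of its first and second step were lost with total counts (-0.25, adjusted p = 0.163, and -0.29, 0.141, edgeR), and that of the second also without intermediate replicate 2 (0.0509) or 3 (0.095) or full replicate 1 (0.0861). Cyp2j6 was at 132, 126 and 121 CPM in the early libraries, 107, 99.2 and 100.3 in intermediate, 115, 124 and 115 in full and 202, 151 and 167 in BEC. All 3 BEC libraries lay above all others, by 0.55 ± 0.10 over full (adjusted p = 0.00120, edgeR) and 0.45 ± 0.10 over early (0.00111). Its small fall in the first step (-0.31 ± 0.10, adjusted p = 0.0208, edgeR) turned to a rise of 0.36 (0.00593) with total counts, and missed the threshold without early replicate 1 (0.0612), intermediate replicate 2 (0.0662) or intermediate replicate 3 (0.0595) and with no filter on low counts (0.0987). Cyp2j9 was at 26.9 ± 4.08 CPM in early, 24.9 ± 4.28 in intermediate, 11.5 ± 3.94 in full and 8.96 ± 4.14 in BEC (mean ± SD, n = 3); it gave -0.11 ± 0.28 in the first step, not called, and -1.11 ± 0.29 in the second (adjusted p = 0.00718, edgeR).

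In subfamily 2d, Cyp2d22 and Cyp2d10 were higher in BEC than in full, while Cyp2d9, Cyp2d13, Cyp2d26 and Cyp2d40 gave values between -0.21 and 0.58 there and were not called. Cyp2d22, a candidate counterpart of human CYP2D6, was at 348, 408 and 373 CPM in the early libraries, 159, 162 and 174 in intermediate, 142, 132 and 133 in full and 300.2, 309 and 305 in BEC. Intermediate and full lay under early in every library, and BEC stood 1.17 ± 0.09 above full (adjusted p = 5.86e-07, edgeR), without overlap. Against early, BEC was lower by a log2 change of -0.30 ± 0.08 (0.00525), but higher by 0.56 (2.25e-05) with total counts, so this direction depends on the scaling. The call of its second step (-0.28, adjusted p = 0.0165, edgeR) was lost with total counts (-0.08, 0.446), with no filter on low counts (0.098) and without intermediate replicate 3 (0.0631), full replicate 2 (0.0686) or full replicate 3 (0.06). Cyp2d10 was at 864, 795 and 808 CPM in the early libraries, 171, 169.6 and 199 in intermediate, 19.6, 13.6 and 23.0 in full and 45.3, 39.1 and 43.0 in BEC. BEC again lay above full in every library, by 1.18 ± 0.15 (8.09e-05). Cyp2d10 shares 22.9% of its 50-base stretches with Cyp2d11, so that their reads are uncertain. Cyp2d11 gave 2.49 (adjusted p = 0.0431, edgeR) at 0.355 ± 0.283 CPM in BEC, and missed the threshold in 10 of 12 fits that left out 1 library (up to 0.206, without BEC replicate 2) and with no filter on low counts (0.0502).

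In family 4, the omega-hydroxylases of subfamily 4f split into falling and held genes. Cyp4f14, a leukotriene hydroxylase and the most abundant of them, was at 161, 210.3 and 279 CPM in the early libraries, 62.5, 100.05 and 129.9 in intermediate, 52.6, 65.5 and 81.7 in full and 46.8, 43.8 and 58.1 in BEC. Its first step was -1.15 ± 0.25 (adjusted p = 0.00152, edgeR), and this call was lost with total counts (-0.49, 0.0942). Early stood above all other groups, which overlapped between neighbours. Cyp4f15 was at 107, 160.2 and 154 CPM in the early libraries, 39.4, 58.9 and 65.4 in intermediate, 18.9, 16.5 and 25.2 in full and 7.61, 7.13 and 8.22 in BEC. It fell in every step, with no overlap between groups, and from full to BEC by 1.40 ± 0.22 (0.000348). Cyp4f16 was at 23.3, 22.6 and 21.9 CPM in the early libraries, 33.7, 26.6 and 32.0 in intermediate, 31.1, 29.3 and 29.6 in full and 28.0, 29.3 and 26.1 in BEC, and Cyp4f17 at 18.5, 14.6 and 16.2 CPM in the early libraries, 23.0, 16.6 and 19.7 in intermediate, 25.5, 21.8 and 23.7 in full and 19.3, 19.5 and 23.9 in BEC. Cyp4f16 shares 17.4% of its 50-base stretches with other genes, mostly Cyp4f37. Every library of the other groups lay above early for Cyp4f16, while for Cyp4f17 intermediate overlapped early. Full was higher than early by 0.41 ± 0.10 for Cyp4f16 (adjusted p = 0.00311, edgeR) and 0.52 ± 0.14 for Cyp4f17 (0.00525). BEC was higher by 0.30 ± 0.10 (0.0199) and 0.34 ± 0.15 (0.0468); the first call was lost without early replicate 3 (0.0571) or BEC replicate 2 (0.0706), with no filter on low counts (0.0615) and in a fit of 2 groups (0.0708). The second was lost in 7 of 12 fits that each left out 1 library, with adjusted p up to 0.192 without BEC replicate 3, with DESeq2 (0.0509), with median-of-ratios factors (0.0504), with no filter (0.0572) and in a fit of 2 groups (0.0995). Cyp4f13 was at 98.6 ± 9.32 CPM in early, 75.9 ± 2.98 in intermediate, 47.0 ± 3.04 in full and 43.2 ± 1.85 in BEC (mean ± SD, n = 3).

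Cyp4v3, the mouse counterpart of the human gene mutated in Bietti crystalline dystrophy, was at 380.0, 348 and 378 CPM in the early libraries, 169, 140.4 and 170.0 in intermediate, 88.6, 66.9 and 78.0 in full and 62.4, 49.3 and 48.0 in BEC. The groups did not overlap. It fell in every step, with log2 changes of -1.21 ± 0.13, -1.04 ± 0.13 and -0.55 ± 0.13 (adjusted p = 3.07e-06, 2.41e-05 and 0.00675, edgeR). Subfamily 4a, the fatty acid hydroxylases under PPARα, was low in early cells, at 3.18 to 6.18 CPM for the 4 genes within the rule. Cyp4a31, the highest of these 4, was at 5.54, 6.37 and 6.64 CPM in the early libraries, 3.65, 6.19 and 5.43 in intermediate, 1.70, 0.981 and 1.92 in full and 4.91, 3.17 and 3.38 in BEC. Full was lowest in all libraries, and BEC was 1.31 ± 0.30 above it (0.00539). Against early, BEC gave -0.69 (adjusted p = 0.0385, edgeR), not called without early replicate 2 or 3 or BEC replicate 2 or 3 (up to 0.133) and 0.17 (0.577) with total counts. Cyp4a10 and Cyp4a14, the best known PPARα targets of the group, went from 5.51 ± 0.915 and 3.18 ± 1.43 CPM in early to 0.0612 ± 0.0697 and 0.0765 ± 0.0950 in BEC, under the floor.

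Full and BEC cells share the Epcam gate and differ in EGFP, and only full cells were also gated on Cd24. Between them, 12 of 56 members were called, 5 lower and 7 higher in BEC (edgeR, adjusted p under 0.05), against 21.3% of all genes, 10.6% lower and 10.7% higher. The median over the members was -0.01, or 0 with genes at 0 counts set to their bound, and 0.00 over all genes. No member of family 3 was called. Higher in BEC were Cyp2s1, Cyp2c65, Cyp2d10, Cyp2d11, Cyp2d22, Cyp2j6 and Cyp4a31, and lower Cyp1b1, Cyp2c23, Cyp2j5, Cyp4f15 and Cyp4v3. Cyp2c23, an arachidonic acid epoxygenase, was at 83.9, 192 and 192 CPM in the early libraries, 31.4, 37.9 and 54.6 in intermediate, 3.70, 3.97 and 8.83 in full and 0.289, 1.40 and 2.33 in BEC. Its difference of -2.02 ± 0.56 (adjusted p = 0.0187, edgeR) was not called without full replicate 3 (0.102), BEC replicate 1 (0.0769) or BEC replicate 2 (0.0575), and moved to -2.68 without BEC replicate 3. The 3 pericentral and periportal markers gave 0.31 ± 0.20 for Cyp2e1, 0.20 ± 0.41 for Cyp2f2 and 0.13 ± 0.36 for Cyp1a2 and were not called; the last 2 turned negative without BEC replicate 3 (-0.46 and -0.53).

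A few P450 genes rose from almost nothing. Cyp2s1, a P450 of surface epithelia such as skin, airway and gut, was at 0.316, 0.182 and 0.567 CPM in the early libraries, 0.314, 0.603 and 0.396 in intermediate, 5.74, 8.43 and 6.12 in full and 37.7, 48.1 and 53.7 in BEC. Every full library exceeded every early and intermediate one, and every BEC library every full one. The second step was 3.91 ± 0.30 (adjusted p = 3.90e-07), and BEC stood 2.78 ± 0.20 above full (4.70e-07) and 6.98 ± 0.30 above early (1.26e-10), by edgeR. The test of the steps gave 3.62 ± 0.77 (0.00588), a larger rise in the second, and 4.23 without intermediate replicate 2.

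Cyp1b1, an oxidase of oestradiol and polycyclic hydrocarbons found mostly outside hepatocytes, was highest in full. It was at 0.712, 0.909 and 0.567 CPM in the early libraries, 0.943, 0.603 and 0.736 in intermediate, 4.21, 4.77 and 4.94 in full and 0.771, 0.978 and 0.320 in BEC. Every full library lay above every library of the other groups, which overlapped. Full differed by 2.61 ± 0.36 from intermediate (adjusted p = 6.15e-05, edgeR) and BEC by -2.74 ± 0.35 from full (7.67e-05). Its test of the steps (2.55, 0.0238) was not called without early replicate 2 (0.0514), intermediate replicate 2 (0.109) or intermediate replicate 3 (0.076). The summed stellate and fibroblast markers were 44.6 to 73.6 CPM in full against 94.6 to 272 in early; their part in the Cyp1b1 level was not tested. Cyp1a1, an inducible gene of the same family, went from 3.63 ± 0.875 CPM in early to 0.596 ± 0.170 in intermediate and was under the floor in full and BEC.

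Cyp4b1, known best from lung, was at 0, 1.91 and 0.809 CPM in the early libraries, 1.70, 7.34 and 5.09 in intermediate, 2.21, 4.91 and 3.80 in full and 9.25, 11.3 and 9.18 in BEC. Intermediate overlapped early, and the call of full against early (2.05, adjusted p = 0.0170, edgeR) was lost without full replicate 2 (0.0552). BEC was above all other libraries and 3.49 ± 0.67 above early (adjusted p = 0.000332, edgeR), and its difference from full was not called (1.45, 0.0747). Against early, BEC gave 2.88 without early replicate 1 and 4.60 without early replicate 2, full 1.44 and 3.15, and intermediate 1.82 and 3.54. Cyp2j13 had 0 counts in all early and intermediate libraries and 0.893, 1.78 and 0.481 CPM in full and 0.867, 1.12 and 0.594 in BEC. It was at least 4.19-fold higher in full and 3.43-fold higher in BEC than in early, and at least 6.04-fold higher in full than in intermediate, with the floor of 3 counts per library. Cyp2c65 reached 0.771, 0.699 and 1.01 CPM in BEC, above the full libraries at 0.128, 0.0446 and 0.306; it met the count rule through BEC alone, so this is a description only. The summed level of 5 macrophage markers was 21.6 to 22.5 CPM per library in early, 63.6 to 84.5 in full and 132 to 143 in BEC; of 4 tested, Csf1r rose and Cd68 fell from early to BEC, Adgre1 had a mean of at most 0.522 CPM in any group, and their part in the small P450 levels was not tested.

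**Figure D4:**
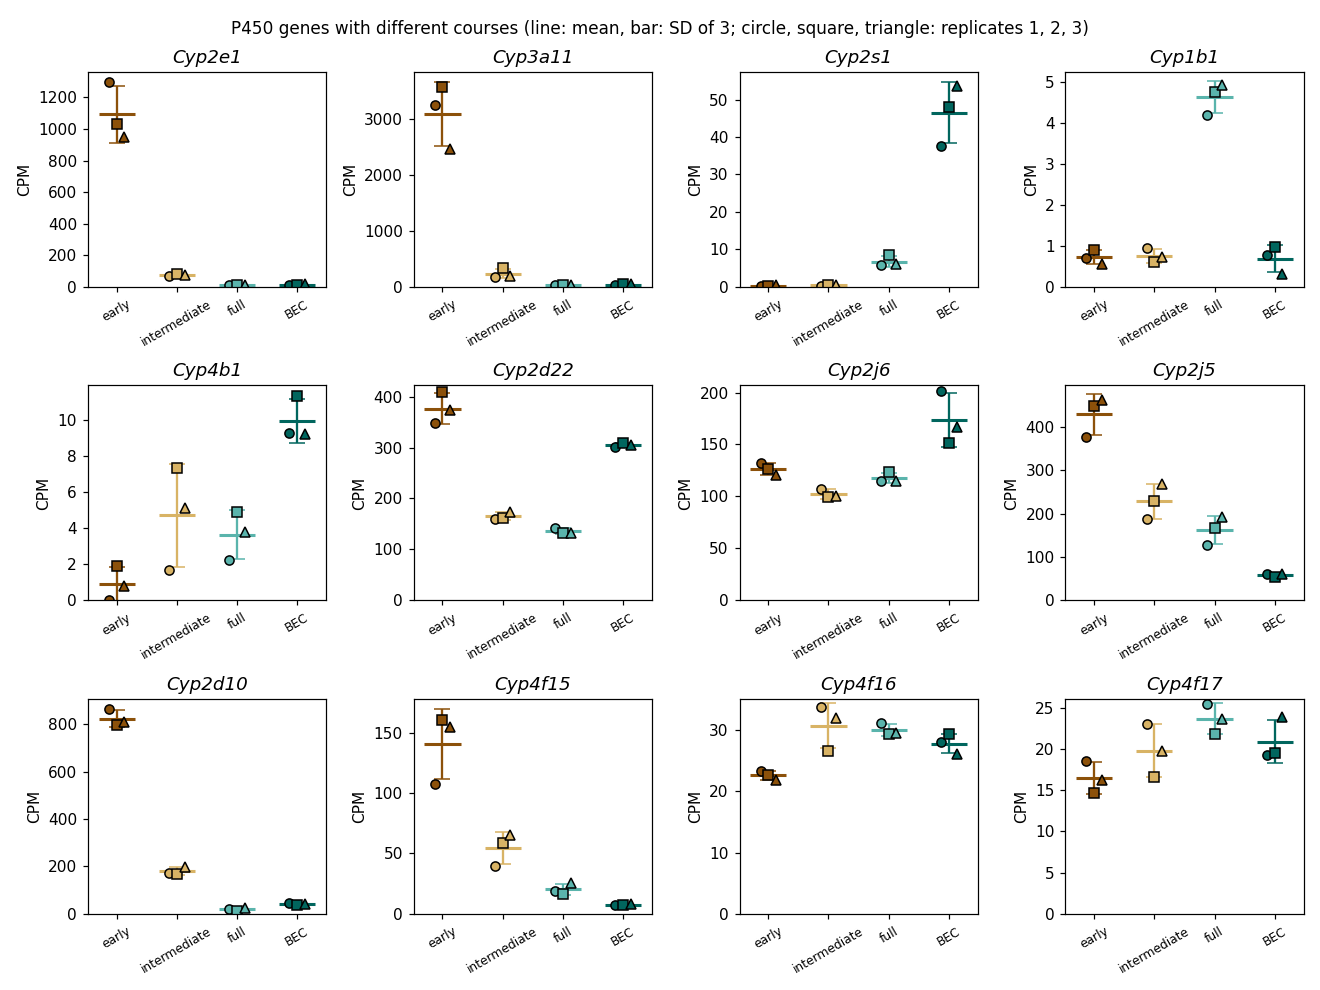
Level of 12 P450 genes in each library, in CPM on linear axes that start at 0. Points are libraries (circle, square and triangle are replicates 1, 2 and 3), lines group means and bars the SD of 3; Cyp2e1 and Cyp3a11 nearly vanish by full, Cyp2s1 and Cyp4b1 peak in BEC, Cyp1b1 peaks in full at a mean of 4.64 CPM, and Cyp2d22 is lowest in full at 136 CPM.

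Among less abundant members, Cyp2r1 fell in both steps and Cyp2t4 was called in no comparison. Cyp2r1, the vitamin D 25-hydroxylase, was at 20.6, 19.1 and 23.1 CPM in the early libraries, 4.27, 3.01 and 5.09 in intermediate, 1.15, 1.52 and 3.02 in full and 1.01, 1.82 and 1.64 in BEC. It fell by 2.34 ± 0.30 in the first step, and the call of the second (-1.12, adjusted p = 0.0141, edgeR) was lost without intermediate replicate 3 (0.0611), full replicate 1 (0.058) or full replicate 2 (0.0607). Cyp2u1, a fatty acid hydroxylase, was at 5.93, 9.37 and 12.5 CPM in the early libraries, 5.41, 5.75 and 6.23 in intermediate, 4.60, 2.10 and 3.46 in full and 2.17, 2.19 and 2.01 in BEC. It was lower in full than in early (-1.45 ± 0.30, adjusted p = 0.000567, edgeR), a call lost with total counts (-0.59, 0.0805). Cyp2t4, at 1.11, 0.0909 and 0.971 CPM in the early libraries, 0.943, 0.767 and 0.623 in intermediate, 0.851, 0.624 and 0.131 in full and 0.626, 0.326 and 0.640 in BEC, was the only one of the 56 members not called by the F test over 4 groups (adjusted p = 0.792, edgeR), against 75.6% of all genes called. The groups overlapped in Cyp2t4, and in Cyp2u1 early and intermediate did not overlap with BEC. Cyp2g1, an olfactory P450, was at 2.69, 4.46 and 5.99 CPM in the early libraries, 0.503, 0.603 and 0.736 in intermediate, 0, 0.0892 and 0 in full and 0, 0.0466 and 0.0457 in BEC, under the floor in the last 2 groups. Cyp2j8 had 0.113 ± 0.0989 CPM in early, 0.285 ± 0.361 in intermediate, 0.362 ± 0.120 in full and 0.330 ± 0.150 in BEC (mean ± SD, n = 3) and no test.

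The ratios between zonal markers overlapped between the 4 groups. The log2 ratio of Cyp2f2 to Cyp2e1 counts within a library was -1.69, -0.80 and -0.63 in early, -0.93, -0.42 and -0.29 in intermediate, -1.46, -0.36 and -0.93 in full and -1.79, -1.16 and -0.57 in BEC. Replicate 1 had the lowest ratio in each group, and all groups overlapped. Means were -1.04 ± 0.57 in early, -0.55 ± 0.34 in intermediate, -0.92 ± 0.55 in full and -1.17 ± 0.61 in BEC (mean ± SD, n = 3), and the exact permutation test of F, which does not use the replicate numbers, gave p = 0.531. Within same-numbered libraries the Cyp2f2 ratio rose from early to intermediate in 3 of 3 pairs, by 0.76, 0.38 and 0.34 (exact sign-flip p = 0.25, the smallest that 3 pairs allow), while the pairs went in both directions in the second step and between full and BEC. The log2 ratio of Cyp1a2 to Cyp2e1 was -0.62, -0.64 and 0.14 in early, -0.44, -0.61 and 0.02 in intermediate, -0.23, -0.26 and -0.06 in full and -0.58, -0.95 and 0.08 in BEC. Here replicate 3 was the highest in each group, and the exact test gave p = 0.805, with group means from -0.48 to -0.18. In BEC, Cyp2e1 stood at 1.27%, Cyp1a2 at 1.30% and Cyp2f2 at 1.31% of early. Without BEC replicate 1 they stood at 1.40%, 1.51% and 1.66%, and without replicate 2 at 1.34%, 1.56% and 1.43%. Without replicate 3 the values were 1.09%, 0.823% and 0.826%, so the near equality was lost without any 1 BEC library. Within pairs the Cyp1a2 ratio went in both directions in each of these comparisons. With SDs of 0.34 to 0.61 between 3 libraries, shifts of that size in the Cyp2f2 ratio could not be resolved without the pairing.

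**Figure D5:**
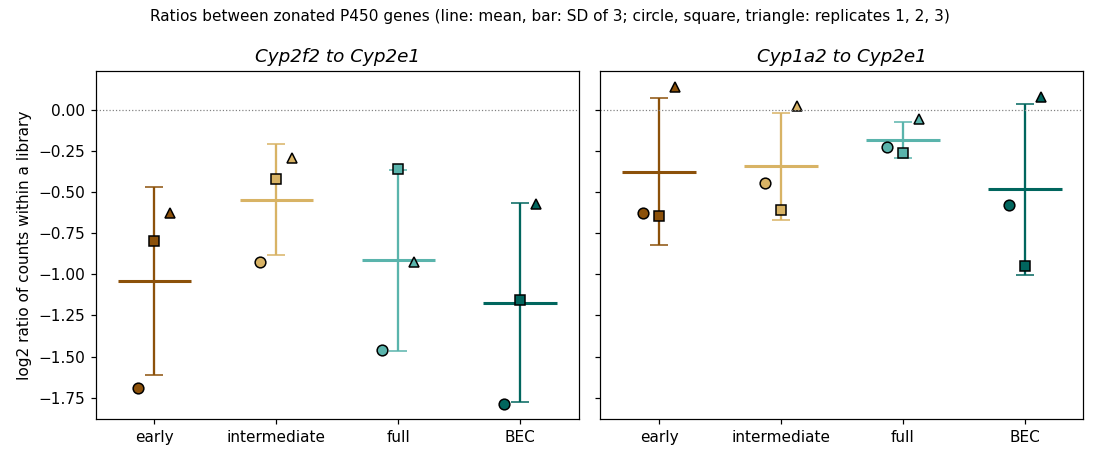
Log2 ratio of counts of Cyp2f2 to Cyp2e1 (left) and of Cyp1a2 to Cyp2e1 (right) within each library, by group. Points are libraries (circle, square and triangle are replicates 1, 2 and 3), lines group means and bars the SD of 3; all 4 groups overlap in both panels, and replicate 1 is lowest on the left and replicate 3 highest on the right in each group.

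Per kilobase of exon, the order of the members changed from group to group. In early cells the highest were Cyp2a5 at 1918 CPM per kb, Cyp2c29 at 686, Cyp3a11 at 605 and Cyp2e1 at 506. In intermediate they were Cyp2a5 at 192, Cyp2d10 at 109 and Cyp2j5 at 97.3. In full they were Cyp2j5 at 69.1, Cyp2d22 at 34.7 and Cyp2j6 at 32.7, and in BEC Cyp2d22 at 78.0, Cyp2j6 at 48.0 and Cyp2d10 at 25.8. Cyp2a5, the first in early, was the fifth in full at 21.9 and the fourth in BEC at 25.2. Neighbours in these orders were not tested against each other, and with SDs such as 429 CPM for Cyp2c29 and 569 for Cyp3a11 in early, those 2 genes are not set apart by their per-length means.

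Promoter sequence was described for 46 of the 57 members, from RefSeq windows of build GRCm38.p6 that hold 250 bases before and 50 after the annotated start. The hexamer TATAAA, searched on both strands in the 250 bases before the start, was present in 21 of 46 members (45.7%), against 12.97% of 27025 windows of all genes. It was in 16 of the 26 members with a BEC mean under 3% of early at any early level (61.5%), and in 5 of the other 20 (25%), a split made after the values were seen. Of the 26, Cyp1a1, Cyp2b9 and Cyp3a57 met the count rule only through early, and Cyp2c40 through early and intermediate. Their low BEC share was built into their choice, so the split is a description only. The motif CAAAGTCCA, known from HNF4 sites, was in 6 of 46 (13.04%, against 0.381%). No member held the HNF1 palindrome (0.0629% of all windows), TTGCGTG (a form of the aryl hydrocarbon receptor element; 0.925%) or TTGCGCAA (a C/EBP site that shares its first letters with the former; 0.170%), on either strand, which says only that these letters are absent from this window. CpG dinucleotides had a median of 2 per 250 bases in the members and 6 in all windows, with 15 in Cyp2s1, 12 in Cyp1b1, 16 in Cyp2r1 and 17 in Cyp4v3.

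The stretch of 120 bases that ends at the base before the start is shown for 4 genes, so that 2 zonal markers that fell can be set beside 2 genes that rose; capitals mark TATAAA. The count files were made on GRCm39 per the submitters' processing notes and hold no coordinates. They are at chr7:140763699-140763818, plus strand, chr7:27119835-27119954, plus strand, chr7:25816526-25816645, minus strand and chr17:79715062-79715181, minus strand (GRCm38.p6), each written 5′ to 3′ on the gene's strand.
Cyp2e1: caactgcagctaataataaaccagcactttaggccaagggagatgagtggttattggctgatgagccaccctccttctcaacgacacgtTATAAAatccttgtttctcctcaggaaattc
Cyp2f2: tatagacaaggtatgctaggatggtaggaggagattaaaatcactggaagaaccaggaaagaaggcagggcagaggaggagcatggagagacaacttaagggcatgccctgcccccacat
Cyp2s1: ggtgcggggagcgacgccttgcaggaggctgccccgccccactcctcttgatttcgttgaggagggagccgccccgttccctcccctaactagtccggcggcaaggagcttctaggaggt
Cyp1b1: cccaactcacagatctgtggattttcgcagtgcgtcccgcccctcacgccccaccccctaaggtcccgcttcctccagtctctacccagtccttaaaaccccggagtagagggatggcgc
Cyp2e1 carries the hexamer at position -31 from the start and the other stretches do not hold it. The stretches of Cyp2s1 and Cyp1b1 have 66.7% and 61.7% G and C and 9 and 7 CpG, those of Cyp2e1 and Cyp2f2 44.2% and 50% and 2 and 0.

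Transcripts of P450 partner proteins, of which Pgrmc1 and Pgrmc2 bind haem and the others belong to electron transfer chains, fell too. Of 8 partners (Por, Cyb5a, Cyb5b, Cyb5r3, Pgrmc1, Pgrmc2, Fdx1 and Fdxr) all 8 were lower in intermediate than in early, 7 lower in full than in intermediate and 1, Cyb5a, lower in BEC than in full (edgeR, adjusted p under 0.05), beside 25.7%, 19.8% and 10.6% of all genes. With total counts alone 7, 6 and 1 were lower, beside 10%, 12.2% and 10.6% of all genes, and none higher. The median log2 fold changes were -1.29, -0.85 and -0.15, beside -2.93, -2.49 and -0.01 over the P450 members and 0.06, 0.01 and 0.00 over all genes. Family 4 had medians of -1.13 and -1.04 in the first and second step, and the lists were not tested against each other. Por, the reductase that feeds electrons to all microsomal P450s, was at 787 ± 106 CPM in early, 249 ± 28.9 in intermediate, 116 ± 6.59 in full and 117 ± 17.5 in BEC (mean ± SD, n = 3). It fell by 1.66 ± 0.13 and 1.10 ± 0.13 on the log2 scale and then gave 0.01. Cytochrome b5, Cyb5a, was at 946 ± 22.8 CPM in early, 266 ± 10.8 in intermediate, 102 ± 8.39 in full and 66.6 ± 4.92 in BEC, and Pgrmc1, a haem-binding P450 partner, at 1589.9 ± 172 CPM in early, 454 ± 11.9 in intermediate, 178 ± 9.87 in full and 156 ± 6.33 in BEC. Cyb5r3, the reductase of cytochrome b5, was at 1004 ± 88.2 CPM in early, 486 ± 12.7 in intermediate, 308 ± 32.5 in full and 284 ± 5.29 in BEC.

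Of 18 tested regulators of P450 transcription, 14 were lower and 1 higher in intermediate than in early, 10 and 1 in full than in intermediate, and 7 and 1 in BEC than in full (edgeR, adjusted p under 0.05). Of all genes these shares were 25.7% and 28.7%, 19.8% and 20.8%, and 10.6% and 10.7%. The medians were -0.87, -0.64 and -0.20, beside 0.06, 0.01 and 0.00 over all genes. With total counts alone the numbers in the 2 steps were 7 lower and 3 higher (all genes 10% and 59.4%) and 8 and 2 (12.2% and 32.3%), Arnt, Foxa2 and Onecut1 being called higher in the first and Ahr and Onecut1 in the second. Hnf4a, the hepatocyte nuclear factor, which is also among the hepatocyte markers, was at 1141 ± 38.5 CPM in early, 638 ± 49.6 in intermediate, 187 ± 11.3 in full and 131 ± 21.8 in BEC. Cebpa was at 929 ± 135 CPM in early, 324 ± 51.7 in intermediate, 121 ± 5.33 in full and 130.4 ± 35.9 in BEC, and Rxra, the partner of CAR, PXR and PPARα, at 746 ± 67.0 CPM in early, 249 ± 34.8 in intermediate, 85.2 ± 3.68 in full and 78.8 ± 11.7 in BEC. All 3 fell in both steps, but the first step of Hnf4a was not called with total counts (-0.17, adjusted p = 0.196, edgeR). Some receptors and activators were named after their values were seen. Nr1i3, which encodes CAR, had the most negative first step of the 18, from 40.0 ± 13.4 to 2.92 ± 1.02 CPM, and stood at 0.377 ± 0.0628 in full. Ppara was at 134 ± 23.2 CPM in early, 37.9 ± 7.52 in intermediate, 6.71 ± 0.842 in full and 3.54 ± 1.05 in BEC. Ahr, the aryl hydrocarbon receptor, was at 135 ± 13.3 CPM in early, 70.8 ± 2.58 in intermediate, 102 ± 3.64 in full and 203 ± 15.6 in BEC, and was the regulator called higher in BEC than in full. Onecut1 was the regulator called higher in intermediate than in early (1.68 ± 0.28, adjusted p = 0.000177, edgeR). Hlf, a circadian activator, had the most negative difference between BEC and full, -3.38 ± 0.28 (adjusted p = 1.38e-06, edgeR). Ahrr had a mean of at most 0.0925 CPM in any group and was not tested.

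The 14 P450 genes outside families 1 to 4, mostly enzymes of sterol, bile acid, retinoid and vitamin D metabolism, showed 8 lower and 0 higher in the first step, 9 and 3 in the second, and 3 and 3 between BEC and full, beside 25.7% and 28.7%, 19.8% and 20.8%, and 10.6% and 10.7% of all genes. The medians were -1.47, -1.28 and 0.10, beside 0.06, 0.01 and 0.00. With total counts alone the numbers were 7 and 3 (all genes 10% and 59.4%), 7 and 3 (12.2% and 32.3%), and 3 and 3 (10.6% and 10.7%), with Cyp20a1, Cyp26b1 and Cyp39a1 called higher in the first step. Cyp7a1, the rate-limiting enzyme of bile acid synthesis, was at 269.6 ± 63.2 CPM in early, 18.1 ± 6.44 in intermediate, 2.94 ± 1.71 in full and 3.23 ± 1.89 in BEC, and Cyp27a1, the sterol 27-hydroxylase, at 351 ± 74.8 CPM in early, 69.6 ± 2.98 in intermediate, 22.7 ± 3.98 in full and 4.08 ± 0.825 in BEC. Cyp27a1 fell again from full to BEC (-2.47 ± 0.19, adjusted p = 8.12e-07, edgeR). Cyp51, the lanosterol demethylase, was at 471 ± 81.7 CPM in early, 129 ± 39.8 in intermediate, 64.4 ± 8.95 in full and 106 ± 14.1 in BEC and was higher in BEC than in full (0.72 ± 0.19), a call lost without full replicate 1 (0.0534), full replicate 2 (0.0795) or BEC replicate 1 (0.0746, edgeR's adjusted p). The 3 genes called higher in full than in intermediate were Cyp27b1, Cyp46a1 and Cyp11a1, the last with 0 counts in early and intermediate. Cyp27b1, the vitamin D 1α-hydroxylase, had 0.118 ± 0.140 CPM in early, 0.154 ± 0.0633 in intermediate, 1.48 ± 0.0669 in full and 5.33 ± 0.950 in BEC.

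Zonal genes other than P450s gave context for the 3 zonal members. Of 9 pericentral genes (Glul, Oat, Gulo, Slc1a2, Lgr5, Axin2, Rgn, Lect2 and Rhbg) 9 were lower in the first step, 3 lower and 1 higher in the second, and 2 lower and 2 higher in BEC than in full. Of 10 periportal genes (Hal, Sds, Cps1, Ass1, Pck1, Gls2, Hsd17b13, Ctsc, Etnppl and Cdh1) these numbers were 8 and 1, 9 and 1, and 2 and 1. Of all genes 25.7% were lower and 28.7% higher in the first step, 19.8% and 20.8% in the second and 10.6% and 10.7% in BEC than in full. The medians were -2.79, -0.61 and -0.40 for the pericentral genes and -2.78, -2.90 and -0.10 for the periportal ones, beside -2.93, -2.49 and -0.01 for the P450 members. With total counts alone, 8 and 0, 3 and 2, and 2 and 2 pericentral genes and 7 and 1, 9 and 1, and 2 and 1 periportal genes were called lower and higher, beside 10% and 59.4%, 12.2% and 32.3%, and 10.6% and 10.7% of all genes. Glul, the glutamine synthetase of the innermost pericentral hepatocytes, was at 108 ± 39.7 CPM in early, 67.6 ± 8.78 in intermediate, 68.8 ± 1.65 in full and 128 ± 8.70 in BEC, and Cps1, the periportal carbamoyl phosphate synthetase, at 5673 ± 1275 CPM in early, 541 ± 190.5 in intermediate, 71.7 ± 30.4 in full and 72.8 ± 40.8 in BEC. The count of 4 pericentral genes called between BEC and full was 2 without full replicate 1 or BEC replicate 2, and the count of 3 periportal genes was 5 with the replicate block.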

How the data were processed

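RNA-seq of 12 libraries, 3 for each of the groups early, intermediate, full and BEC, was used. The authors deposited raw counts per gene symbol; per the submitters' processing notes, STAR 2.7.10b, featureCounts 2.0.1 and build GRCm39 were used, and the annotation, strandedness and treatment of reads with several matches are not given in the sources used here. A second deposited table of DESeq2-normalized values was not used, since the tests need counts. Library totals were 15112893 to 19731887 counts, and intervals and floors from 3 counts cover counting error only.

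The members, lists and limits were chosen with earlier results of these data known. In R 4.3.3, edgeR 4.0.16 kept genes by filterByExpr on the groups (16210 genes), scaled libraries by TMM and fitted 1 quasi-likelihood model over 4 groups without a replicate block; contrasts were adjusted by Benjamini-Hochberg over all genes tested, and a gene was called at adjusted p under 0.05. Sums and ratios were compared by 2-sided exact permutation tests and, for groups paired by number, exact sign-flip tests. On simulated data for intermediate against early (16210 genes, 100 changed at each size), 77% of genes with a log2 fold of 1 and 95% with 2 were recovered, and 5.49% of 182 calls were false. The simulation had few changed genes, balanced in direction, and 1 spread for all genes. In the data 54.4% of genes were called in this comparison, so these rates do not carry over.

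Values in every library are given for the 3 markers Cyp2e1, Cyp2f2 and Cyp1a2, the member of each subfamily with the highest mean, and, for each of 5 comparisons, the 3 called members with the largest change in each direction whose higher group reached a mean of 10 CPM and whose replicates did not overlap. Cyp1a1, Cyp2a4, Cyp2c37, Cyp2c38, Cyp2c65, Cyp2d11, Cyp2j9, Cyp2j13, Cyp3a13 and other members outside this rule were named after their values were seen. The lists were redox partners, P450 regulators, other P450 families, pericentral and periportal genes, and markers of hepatocytes, biliary cells and other cells; 1 gene of the pericentral list and 1 of the biliary markers are not reported here and were left out of all counts and sums.

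Gene symbols alone identify rows. Exon lengths (56 members) and shared 50-base stretches came from an annotation on GRCm38, and promoters (46 members) from RefSeq on GRCm38.p6; no coordinate was moved between builds. Cyp2c40 and Cyp2c67 share over 50% of their 50-base stretches with other genes, and their counts are uncertain.

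Same-numbered libraries deviated together from their group means, with correlations over genes of 0.121 to 0.293 between early and intermediate, 0.137 to 0.322 between intermediate and full and 0.170 to 0.257 between full and BEC, so that the numbers pair these groups. For full and BEC against early they ran from 0.0960 to 0.209 and from 0.0442 to 0.145, weaker but of the same sign. Within-pair differences were taken between neighbouring groups only. What a number marks is not given in the labels. Alternatives were DESeq2 1.42.0, median-of-ratios factors, total counts, no filter, a mean of at least 50 counts, a replicate block, fits of 2 groups, and leaving out each library.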

Additional observations from a re-analysis of the deposited data

How the results depend on the processing

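The count of P450 members with unequal steps rested most on the processing: 9 were called (16.4% of all genes), 18 with no filter on low counts (9.7% of all genes), 19 with the replicate block (21.6%) and 2 to 12 when 1 library was left out (9.96% to 17.1%), the lowest without intermediate replicate 3 (11.9%). With only genes of a mean of at least 50 counts, the calls among other P450 families were 5 in the first step, 5 in the second, 6 for full and 6 for BEC against early, as fewer genes were tested. Between BEC and full, 5 periportal genes were called with the replicate block and 2 to 5 pericentral genes when 1 library was left out. The replicate block changed no other call of a named result. Chosen after seeing the data were differences within same-numbered libraries for sums and ratios, where exact sign-flip p cannot go below 0.25, and counts without members kept through 1 group, which stayed within 1.5 times. So were percents of early without 1 library: of the 25 low members, 20 stood at 1 to 2% in BEC, and 10 without BEC replicate 3. Directions turned with total counts for Cyp1b1 (0.78), Cyp2d22 (0.56) and Cyp4a31 (0.17) in BEC against early and for Cyp2j6 (0.36) in the first step. Without 1 library each, log2 values ran from -0.53 to 0.43 for Cyp1a2 and -0.46 to 0.54 for Cyp2f2 in BEC against full, from -0.11 to 0.23 for Cyp1b1 and -0.015 to 0.79 for Cyp2s1 in the first step, and from -0.41 to 0.27 for Cyp1b1 in BEC against early. The cause of these changes was not tested. Beside these, values that answer a comparison were unchanged in 230 instances of another setting and 705 of a left-out library. Unchanged meant within 1.5 times for counts of calls, the same call for permutation tests and only the same sign for differences of sums. The 230 include mean within-pair differences, which equal the differences of group means by construction and so test nothing. With 3 counts as the floor, levels under 0.128 to 0.273 CPM could not be resolved, which covers many members in full and BEC.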

Other observations

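Some P450 symbols fell outside the rule: 19 that match its pattern had too few counts, 33 were pseudogenes or antisense genes and 6 had a further letter. The pseudogene Cyp2d37-ps was at 51.1 ± 7.91 CPM in early, 7.04 ± 2.34 in intermediate, 0.495 ± 0.368 in full and 0.387 ± 0.264 in BEC (mean ± SD, n = 3), or 0.757% of early in BEC; reads of pseudogenes and their parent genes may be exchanged in the counting. Cyp2d38-ps fell from 10.4 ± 2.96 CPM in early to 0.397 ± 0.350 in intermediate. Cyp4f41-ps was at 0.460 ± 0.314 CPM in early and 1.92 ± 0.0884 in BEC, higher by 2.08 on the log2 scale (adjusted p = 0.00151, edgeR). Cyp4a12a, a fatty acid hydroxylase known for high levels in males, was at 3.24, 7.64 and 9.31 CPM in the early libraries and 0.219 ± 0.0603 in BEC.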
